A study of Mus musculus with 6 samples.

Results

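The Reg genes encode a family of small secreted proteins built on a C-type lectin fold, and 6 of them were followed here in the duodenum of mice without the vitamin D receptor. The family was selected on its VDR-null minus wild-type differences on these arrays. The members, Reg1, Reg3a, Reg3b, Reg3d, Reg3g and Reg4, were taken by symbol, each from a probe set that the platform annotation pairs with that symbol alone. Every member had 1 such probe set, so the rule of taking the brightest of several did not come into play. They are 6 of 22180 named genes on the array. The VDR-null group was 3 mice and the wild-type group 3 mice, all 10 weeks old on the C57Bl/6 background, with duodenal RNA on 1 whole-transcript array per mouse. Both groups are as labelled: the sources used here do not give the targeted allele, sex or diet, and nothing says that the mice were littermates. Values are log2 signals, so a difference of 1 is a doubling, and differences are VDR-null minus wild-type. Since those differences chose the family, they are a description of these mice and are not independent support for a change.

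Vdr, the gene named in the genotype, does not check the labels here. Its probe set read 10.99, 10.86 and 10.85 on the VDR-null arrays and 10.72, 10.95 and 11.11 on the wild-type arrays. The sources used here do not say where its probes lie relative to the missing part of the gene. The array medians lay between 5.15 and 5.19. The arrays did not fall apart by genotype first: the first principal component held 62.2% of the variance and had VDR-null replicate 1 and wild-type replicate 1 at its opposite ends. VDR-null replicate 3 stood apart in pancreatic genes, as described beside Reg2. Gip, a hormone of the proximal small intestine, read 9.74 to 9.92 on VDR-null and 9.72 to 10.01 on wild-type arrays, and the lysozyme of Paneth cells, Lyz1, read 12.77 to 13.16 and 12.98 to 13.28.

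Reg proteins are released from the gut epithelium and from the exocrine pancreas. Reg3b and Reg3g are antibacterial lectins of enterocytes and Paneth cells that help to keep bacteria away from the mucosal surface. Their transcription is known to be driven by microbial signals through the adaptor Myd88 and by interleukin 22, whose receptor acts through the transcription factor Stat3. Reg1 was first described in the regenerating pancreas, and Reg4 is found in secretory cells of the intestinal crypt. Vitamin D is known to act in the intestine on mineral absorption and on antimicrobial defence. In tissue RNA, fewer cells of a type and less RNA per cell cannot be told apart.

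Of the 6 genes, 5 lie together on chromosome 6 and Reg4 lies on chromosome 3. In the RefSeq gene table of GRCm38.p6 the cluster runs Reg3b, Reg3d, Reg3a, Reg2, Reg1 and Reg3g, with a predicted pseudogene between Reg1 and Reg3g. RefSeq (GRCm38.p6) held a start site for all 6 members and for Reg2. The 250 bases upstream of the start are shown for the 4 Reg3 genes, because the Reg3 genes hold the widest differences between the genotypes. They come from chr6:78370635-78370884 on the plus strand for Reg3b, chr6:78468875-78469124 on the minus strand for Reg3g, chr6:78380459-78380708 on the plus strand for Reg3a and chr6:78378866-78379115 on the minus strand for Reg3d. Capitals mark matches on either strand to TTCNNNGAA, the core of a STAT binding site, and to TATAAA, the TATA box.
Reg3b: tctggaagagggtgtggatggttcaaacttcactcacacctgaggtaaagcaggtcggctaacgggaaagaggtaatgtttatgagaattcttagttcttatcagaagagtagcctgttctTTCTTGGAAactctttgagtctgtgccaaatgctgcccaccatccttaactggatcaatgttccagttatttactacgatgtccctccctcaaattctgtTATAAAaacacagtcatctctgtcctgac
Reg3g: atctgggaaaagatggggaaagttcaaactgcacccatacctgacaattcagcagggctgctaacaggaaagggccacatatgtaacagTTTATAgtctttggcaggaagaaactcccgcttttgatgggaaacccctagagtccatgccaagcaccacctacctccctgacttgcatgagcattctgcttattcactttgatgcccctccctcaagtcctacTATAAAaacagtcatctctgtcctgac
Reg3a: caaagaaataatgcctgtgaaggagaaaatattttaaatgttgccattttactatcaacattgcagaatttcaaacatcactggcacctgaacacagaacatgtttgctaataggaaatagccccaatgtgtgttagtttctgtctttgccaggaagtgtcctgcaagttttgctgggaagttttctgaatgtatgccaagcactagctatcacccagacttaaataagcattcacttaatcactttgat
Reg3d: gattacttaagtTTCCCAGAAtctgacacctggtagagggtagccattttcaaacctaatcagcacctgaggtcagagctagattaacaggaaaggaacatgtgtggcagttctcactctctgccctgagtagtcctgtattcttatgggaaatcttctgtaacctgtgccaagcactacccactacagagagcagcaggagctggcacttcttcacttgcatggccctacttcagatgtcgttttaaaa

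The windows of Reg3b and Reg3g were the most alike in the family. A global alignment placed 173 identical bases in 253 columns, or 68.4%, and the other 20 pairs among the 7 genes gave 43.8% to 55.6%. Reg3b and Reg3g shared a run of 20 bases, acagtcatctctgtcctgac, directly before the start in both genes. A forward TATAAA match began 29 bases before the start in Reg3b, 27 bases in Reg3g and 30 bases in Reg1 and Reg2, and Reg3g held another match on the opposite strand. TATAAA occurred in 12.4% of 32851 windows of the same length. A match to TTCNNNGAA lay 129 to 121 bases before the start in Reg3b and 238 to 230 bases before it in Reg3d, and the other 5 windows held none. That motif occurred in 7.02% of all windows. AGGTCA, a core element of nuclear receptor sites, lay 181 to 176 bases before the start in Reg3d and in 14% of all windows. The DR3 motif of the vitamin D receptor and its partner, a direct repeat of that element searched in a degenerate form on both strands, was in none of the 7 windows and in 0.548% of all windows. A match shows letters only and not a bound site, and a window without one says nothing of the factor.

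The 3 Reg3 genes bright enough to be tested were higher in VDR-null than in wild-type duodenum on average, Reg1 was slightly higher and Reg4 slightly lower, and no difference passed the test over all genes. Reg3b was 3.48-fold higher, Reg3a 2.93-fold and Reg3g 1.66-fold. The test took in genes with 3 or more arrays over 5.17, the middle of all values, and so kept 5 of the 6 members and 13174 genes in all. limma placed 0 of the 5 tested members past an adjusted p of 0.05, and 0 of all genes (0% of those tested). At an unadjusted p under 0.05 stood 2 of the 5 members, Reg3b and Reg3a, both higher, where 2.2% of all tested genes were higher and 3.03% lower at that level (5.23% in all). The VDR-null arrays all lay above the wild-type arrays in 1 tested member, Reg3b, and in 4.87% of all tested genes. The reverse held in 0 members and in 6.22% of all tested genes, and either order in 11.1%.

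**Figure D1:**
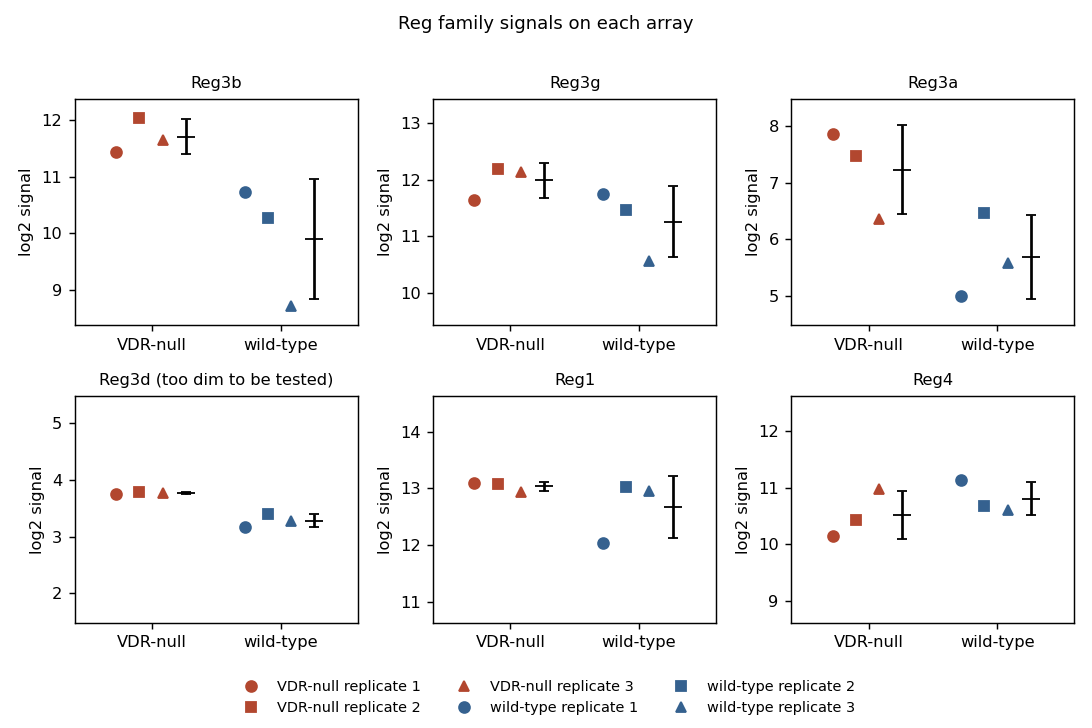
Log2 signal (y axis, each panel spanning 4 log2 units) of the 6 Reg genes on the 3 VDR-null and 3 wild-type arrays; points are arrays, with the mean and SD beside them. Reg3b and the dim Reg3d separate the genotypes, while Reg3g, Reg3a, Reg1 and Reg4 overlap.

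Reg3b, an antibacterial lectin of the epithelium, read 11.43, 12.04 and 11.64 on VDR-null arrays and 10.73, 10.27 and 8.71 on wild-type arrays. All 3 VDR-null arrays were above the wild-type ones, and wild-type replicate 3 stood well below the other two wild-type arrays. The VDR-null mice lay within 1.52-fold of each other, and the wild-type mice spread over 4.07-fold. The difference was 1.80 ± 0.49 (SE), with a 95% confidence interval of 0.63 to 2.97 and a limma adjusted p of 0.683. Without wild-type replicate 3 it was 1.20, the smallest value with any array left out, and without wild-type replicate 1 it was 2.22, the highest. A spread of this size within the wild-type group leaves the amount of the difference poorly fixed.

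Reg3g, whose product binds the peptidoglycan of Gram-positive bacteria, read 11.64, 12.19 and 12.14 on VDR-null arrays and 11.75, 11.47 and 10.56 on wild-type arrays. Here the groups overlapped, since VDR-null replicate 1 lay below wild-type replicate 1. The difference was 0.73 ± 0.32 (SE), with a 95% confidence interval of -0.017 to 1.48 (limma adjusted p = 0.683). It was 0.38 without wild-type replicate 3, the array that was lowest in Reg3b too.

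Reg3b and Reg3g ordered the arrays alike within each genotype. Replicate 2 was highest and replicate 1 lowest among the VDR-null arrays in both genes, and replicate 1 was highest and replicate 3 lowest among the wild-type arrays. Even so, the mean differences of the genes were not of the same size on these arrays. Reg3b minus Reg3g, taken within each array, ran from -0.50 to -0.15 in VDR-null and from -1.85 to -1.02 in wild-type duodenum. The mean of this within-array value was higher by 1.07 on the log2 scale in VDR-null, a 2.10-fold shift of the ratio, and by 0.82 to 1.24 with each array left out. The wild-type arrays spanned 2.03 log2 units in Reg3b and 1.19 in Reg3g, and the VDR-null arrays 0.61 and 0.56. The ratio therefore varied with signal level inside the wild-type group too, and the part of level in the shift was not tested. Of the 10 pairs of tested members, 3 had a within-array difference that did not overlap between the genotypes: Reg3b with Reg3g, Reg3b with Reg4 and Reg3g with Reg4. The 3 pairs share their genes and arrays, and the ratios were not tested. Among single tested genes 11.1% did not overlap, and the share among all pairs of genes was not computed, so nothing is read from the count of pairs. Probes of near-identical family members can share signal, and how far the Reg3 probe sets do so could not be read from the sources used here.

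**Figure D2:**
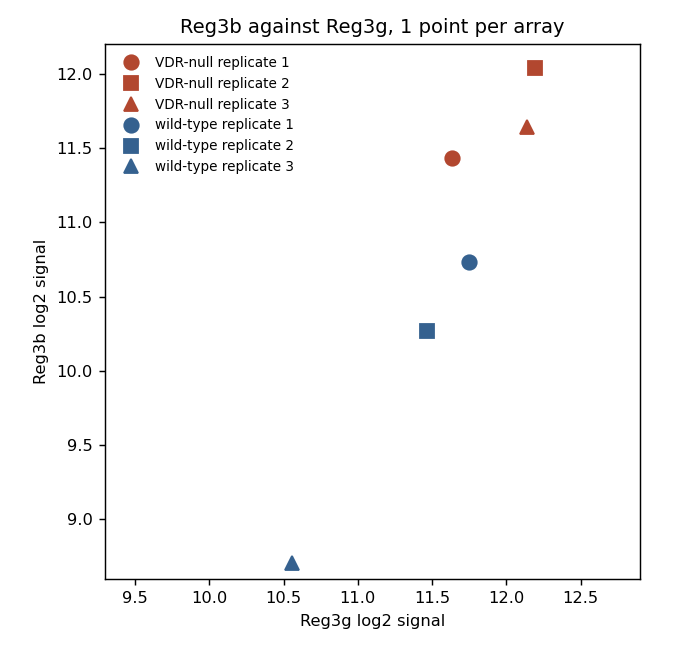
Reg3b log2 signal (y axis) against Reg3g log2 signal (x axis), 1 point per array, VDR-null in red and wild-type in blue. Both groups climb together, and the VDR-null arrays lie higher in Reg3b than wild-type arrays of like Reg3g signal.

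Reg3a, a further Reg3 lectin of the same cluster, read 7.86, 7.48 and 6.35 on VDR-null arrays and 4.998, 6.47 and 5.57 on wild-type arrays. VDR-null replicate 3 lay just below wild-type replicate 2, so the groups overlapped. Only wild-type replicate 1 was under the median of all values. The difference was 1.55 ± 0.48 (SE), with a 95% confidence interval of 0.41 to 2.69 (limma adjusted p = 0.683). It was 1.99 without VDR-null replicate 3 and 1.21 without wild-type replicate 1. Its order of arrays was unlike that of Reg3b: the lowest Reg3a signal was on wild-type replicate 1, which had the highest Reg3b signal among the wild-type arrays.

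Reg3d, whose product is related to the islet neogenesis protein INGAP, was dim on all 6 arrays and was not tested. It read 3.76, 3.79 and 3.78 on VDR-null arrays and 3.17, 3.41 and 3.27 on wild-type arrays. The VDR-null arrays were all above the wild-type ones, but these signals are near the floor of the array and no fold is given. Among the 9006 named genes too dim to be tested, 5.63% had VDR-null arrays all above wild-type arrays and 6.02% all below.

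Reg1, the founding member known from the pancreas, read 13.09, 13.08 and 12.94 on VDR-null arrays and 12.04, 13.02 and 12.95 on wild-type arrays. A single array, wild-type replicate 1, stood about a log2 unit below the other 5, which lay within 12.94 to 13.09. The difference was 0.37 ± 0.25 (SE), with a 95% confidence interval of -0.24 to 0.97 (limma adjusted p = 0.684). Without wild-type replicate 1 it was 0.052. The highest signal in the whole table was 13.77, and how far signals this close to the top are compressed was not tested.

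Reg4, a lectin-like product of crypt secretory cells, read 10.14, 10.43 and 10.97 on VDR-null arrays and 11.14, 10.67 and 10.60 on wild-type arrays. The groups overlapped, with VDR-null replicate 3 above wild-type replicates 2 and 3. The difference was -0.29 ± 0.24 (SE), with a 95% confidence interval of -0.86 to 0.28 (limma adjusted p = 0.706). It was -0.10 without VDR-null replicate 1, -0.12 without wild-type replicate 1 and -0.52 without VDR-null replicate 3.

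**Figure D3:**
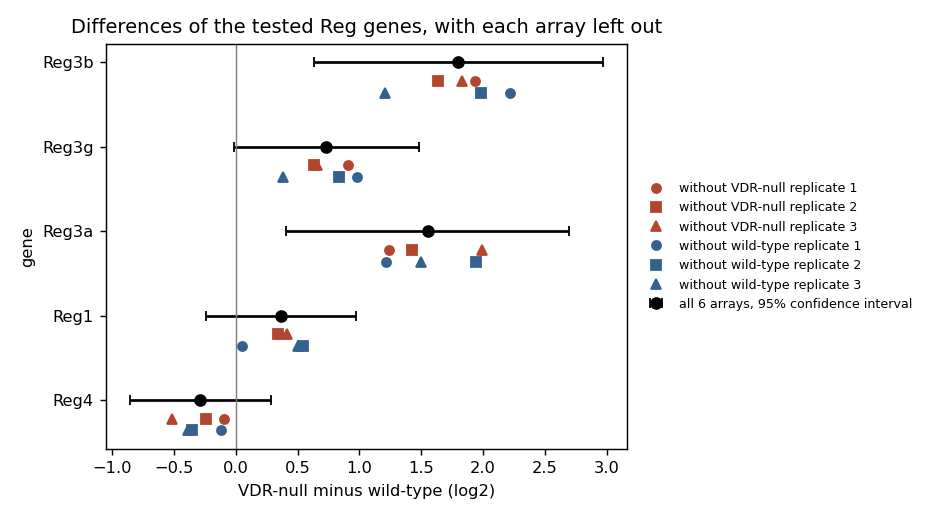
VDR-null minus wild-type difference (x axis, log2) of the 5 tested Reg genes with all 6 arrays (black, with the 95% confidence interval) and with each array left out (coloured points). Reg3b stays between 1.20 and 2.22 and Reg3a between 1.21 and 1.99, while Reg1 lies at 0.052 without wild-type replicate 1.

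Reg2, the family gene outside the members, is known as a product of the exocrine pancreas. It was dim on all arrays, at 3.29, 3.36 and 4.54 on VDR-null and 3.37, 3.58 and 3.45 on wild-type arrays. VDR-null replicate 3 alone stood apart. The same array was the highest in several digestive enzymes of the pancreas, though not in all tested genes of that list. Chymotrypsinogen, Ctrb1, read 8.57, 7.24 and 11.06 on VDR-null and 7.19, 6.19 and 6.22 on wild-type arrays. Carboxypeptidase A1, Cpa1, read 10.11 on that array and 5.55 to 6.78 on the other 5, and the trypsinogen Try4 read 10.38 there and 6.19 to 7.83 elsewhere. Of 28 listed pancreatic genes 22 were named on the array and 11 were tested, and their summed level ran from 11.7 to 13.4 on VDR-null and from 11.3 to 12.5 on wild-type arrays. In the list, 8 tested genes were higher and 3 lower, with a median of 1.00, the brightest members being the colipase Clps (-0.17) and the lipase Pnliprp2 (-0.27). Clps and Pnliprp2 were highest on wild-type replicate 1, at 11.85 and 10.13, against 11.49 and 9.49 on VDR-null replicate 3. The chymotrypsin Ctrc read 5.31 to 5.51 on VDR-null and 5.08 to 5.58 on wild-type arrays. The trypsin inhibitor Spink1 was lowest of the VDR-null arrays on replicate 3, at 7.98 against 10.15 and 9.21 on replicates 1 and 2. Reg1 read 12.94 on VDR-null replicate 3, the lowest of the VDR-null arrays. Without that array the difference was 1.83 for Reg3b, 0.66 for Reg3g and 1.99 for Reg3a. It was 0.41 for Reg1 and -0.52 for Reg4. The part of pancreatic tissue in the Reg values was not tested.

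Genes that act upstream of Reg3 transcription had mostly positive differences, and none passed the test. Of 18 listed genes of interleukin 22, interleukin 17 and Stat3 signalling, 17 were named and 10 tested. Of these 8 were higher and 2 lower, with a median of 0.18, where the median over all tested genes was -0.026 and 44% of them were higher. Il22ra1, the epithelial chain of the interleukin 22 receptor, read 10.94, 10.36 and 9.95 on VDR-null and 9.55, 10.18 and 10.00 on wild-type arrays, a difference of 0.51 ± 0.27 (SE). Il10rb, its partner chain, differed by 0.34 ± 0.18, and Il6st, the shared receptor chain of the interleukin 6 family, by -0.29 ± 0.13. Il22ra1 and Il10rb overlapped between the genotypes, and Il6st was lower on each VDR-null array than on any wild-type array. The Il22ra1 signal ordered the arrays as the mean of the brush border list, described below, did. Wild-type replicate 1 was the lowest array in Il22ra1 but the highest of the wild-type arrays in Reg3b. The interleukin 17 receptor chains Il17ra (0.26 ± 0.096) and Il17rc (0.29 ± 0.10) were higher on each VDR-null array than on any wild-type array. In the list 2 of 10 tested genes were ordered in that way and 1 in reverse, against 4.87% and 6.22% of all tested genes. Stat3 itself differed by 0.12 ± 0.13 and overlapped. The cytokine Il22 itself was dim, at 2.47 to 2.48 on VDR-null and 2.49 to 2.50 on wild-type arrays. None of the list passed the limma threshold (lowest adjusted p = 0.683).

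Genes that sense microbes showed no common direction. Of 21 listed, 18 were named and 17 tested, 8 higher and 9 lower, with a median of -0.014. Interleukin 18, Il18, a cytokine matured by the inflammasome, differed by 0.59 ± 0.36 (SE), the adaptor Ticam1 by 0.51 ± 0.22 and the endotoxin co-receptor Ly96 by 0.35 ± 0.13. Myd88, the adaptor of most Toll-like receptors, read 8.32, 8.34 and 8.32 on VDR-null and 8.19, 8.35 and 8.21 on wild-type arrays, groups that overlapped. None passed the limma threshold (lowest adjusted p = 0.683).

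Other defence genes of the epithelium that are known to be inducible were split in direction between the genotypes. Of 24 listed, 19 were named and 12 tested, 7 higher and 5 lower, with a median of 0.11. The acute phase protein Saa3 differed by 0.49 ± 0.26 (SE), the chemokine Ccl20 by 0.44 ± 0.38 and the antiviral membrane protein Ifitm3 by -0.35 ± 0.23. Saa3 read 4.91, 5.83 and 5.89 on VDR-null and 5.09, 5.20 and 4.87 on wild-type arrays, so that VDR-null replicate 1 lay within the wild-type range. Set against the average of all arrays, the list mean was -0.32, 0.18 and 0.23 on VDR-null and 0.24, -0.10 and -0.23 on wild-type arrays. Within each genotype it was lowest on the array that was lowest in Reg3b. The 12 tested of 14 listed lectins outside the Reg family split 7 higher and 5 lower, with a median of 0.050. Their widest differences were in the C-type lectin-like genes Clec2e (1.29 ± 0.69) and Clec2h (1.03 ± 0.53) and in the galectin Lgals3 (0.63 ± 0.41). Wild-type replicate 1 was the lowest array in all 3 of these genes. The mucus lectin Zg16 was higher on each VDR-null array (12.11 to 12.18) than on any wild-type array (11.18 to 11.97). That order held in 1 of the 12 lectins and in 4.87% of all tested genes. Neither list had a gene past the limma threshold (lowest adjusted p = 0.683 in each).

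**Figure D4:**
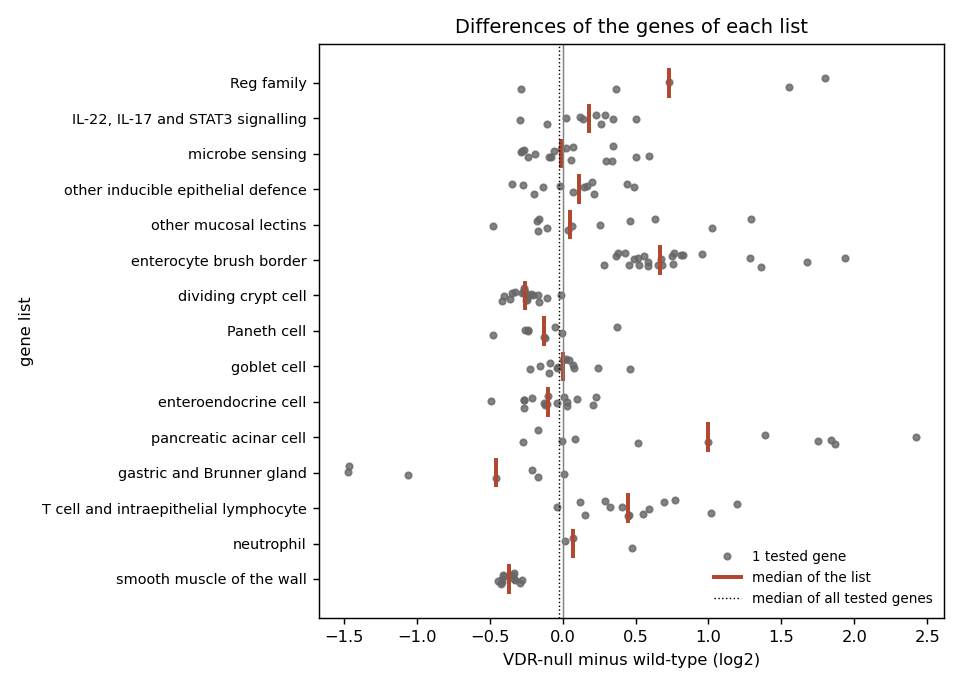
VDR-null minus wild-type difference (x axis, log2) of every tested gene of the Reg family and of 14 other lists (rows); grey points are genes, red bars the list medians and the dotted line the median of all tested genes, -0.026. The Reg family, chosen on these differences, has a median of 0.73. Medians are 1.00 for pancreatic acinar, 0.67 for brush border and 0.45 for T cell genes. They are -0.46 for gastric and Brunner gland genes and -0.37 for smooth muscle genes, and microbe sensing and goblet cell genes centre near 0.

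The marker lists of Paneth, goblet and enteroendocrine cells had median differences between -0.13 and 0.0041. Paneth cell genes, of which 9 of 13 listed were named and all 9 tested, were lower in 8 cases and higher in 1, with a median of -0.13. Their summed level ran from 14.7 to 15.6 on VDR-null and from 15.0 to 15.7 on wild-type arrays. The intelectin Itln1 differed by -0.47 ± 0.26 (SE), the pentraxin Mptx2 by 0.37 ± 0.53, the defensin Defa26 by -0.26 ± 0.32, Lyz1 by -0.13 ± 0.13 and the defensin Defa24 by -0.12 ± 0.14. The list was highest on wild-type replicate 1 and lowest on VDR-null replicate 1, as was Reg4. Goblet cell genes split 7 higher and 6 lower of 13 tested, with a median of 0.0041 and summed levels of 14.6 to 14.8 on VDR-null and of 14.6 to 14.8 on wild-type arrays. The mucin Muc2 differed by -0.040 ± 0.10, Fcgbp by 0.0041 ± 0.089, Zg16, a lectin of mucus, by 0.46 ± 0.21, Clca1 by 0.24 ± 0.15 and Agr2 by -0.22 ± 0.20. Enteroendocrine genes were lower in 10 of 16 tested cases, with a median of -0.10 and summed levels of 12.18 to 12.37 on VDR-null and of 12.26 to 12.37 on wild-type arrays. In that list the transcription factors Neurog3 (-0.49 ± 0.17), Insm1 (-0.26 ± 0.09) and Isl1 (-0.26 ± 0.11) differed most. Each was lower on all VDR-null arrays than on any wild-type array. That held in 4 of the 16 tested genes of the list and in 6.22% of all tested genes. The brightest genes, Chgb (-0.21 ± 0.12) and Gip (0.013 ± 0.11), overlapped. No gene of these 3 lists passed the limma threshold, and the part of these cells in the Reg values was not tested.

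The absorptive enterocyte genes separated the arrays more widely than the genotypes. All 24 tested genes of the brush border list were higher in VDR-null duodenum, with a median of 0.67, among them lactase, Lct (1.93 ± 1.22, SE), the peptide carrier Slc15a1 (1.68 ± 0.99) and the glucose transporter Slc2a2 (1.36 ± 0.84). The brightest were the phosphatase Alpi (0.56 ± 0.48), which overlapped, and the peptidase Anpep (0.66 ± 0.18), which was higher on every VDR-null array. The summed level ran from 15.6 to 16.5 on VDR-null and from 14.5 to 15.9 on wild-type arrays. VDR-null replicate 1 stood 0.87 above the average of the 6 arrays, and the deviation of wild-type replicate 1 was -1.35. With the mean of this list as a covariate the Reg3b difference was 2.28 and that of Reg3g 1.09, both wider than without it. The Reg3a difference was 0.83, that of Reg1 -0.035 and that of Reg4 0.070. The limma adjusted p was 1.00 for each of these fits.

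Dividing crypt cell genes were lower in all 19 tested cases, with a median of -0.26, such as Mki67 at -0.42 ± 0.17 (SE), Kif11 at -0.40 ± 0.25 and Top2a at -0.36 ± 0.21, with the bright Pcna at -0.17 ± 0.18. Their summed level ran from 13.0 to 13.6 on VDR-null and from 13.3 to 13.7 on wild-type arrays. Smooth muscle genes of the gut wall were lower in all 12 tested cases too, with a median of -0.37 and summed levels of 13.6 to 13.7 on VDR-null and of 13.7 to 14.2 on wild-type arrays. They include Cnn1 (-0.44 ± 0.19), Synpo2 (-0.42 ± 0.12) and Tagln (-0.42 ± 0.13), and the bright Acta2 (-0.33 ± 0.13) and Myl9 (-0.33 ± 0.13). Genes of the gastric and Brunner gland list, which mark the part of the duodenum next to the stomach, were lower in 6 of 7 tested cases, with a median of -0.46 and summed levels of 8.71 to 9.42 on VDR-null and of 9.35 to 10.7 on wild-type arrays. The trefoil peptide Tff2 read 8.18, 6.19 and 7.46 on VDR-null and 9.83, 9.59 and 6.84 on wild-type arrays. The gland mucin Muc6 read 6.30, 4.74 and 5.23 on VDR-null and 7.91, 7.41 and 5.36 on wild-type arrays, and the gastrokine Gkn3 differed by -1.06 ± 0.16. Gkn3 was lower on each VDR-null array (6.88 to 7.27) than on any wild-type array (7.93 to 8.35). That order held in 6 of 12 tested smooth muscle genes, 4 of 7 gastric and Brunner gland genes and 0 of 19 crypt genes. It held in 6.22% of all tested genes. The reverse held in 0 genes of these lists and in 4.87% of all tested genes. Tff2 and Muc6 were lowest on VDR-null replicate 2, which was highest in Reg3b, and within the wild-type group they were lowest on replicate 3, which was lowest in Reg3b. The part of these genes, and of the site sampled, in the Reg values was not tested.

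Lymphocyte genes, of T cells and those within the epithelium, had positive differences in 13 of 14 tested cases, with a median of 0.45 and summed levels of 11.04 to 12.02 on VDR-null and of 10.5 to 11.7 on wild-type arrays. The granzymes Gzmb (1.19 ± 0.68, SE) and Gzma (1.02 ± 0.79) and the receptor chain Cd3g (0.77 ± 0.38) differed most, and the brightest, Ccl5 (0.45 ± 0.41) and Cd3e (0.70 ± 0.39), overlapped between the genotypes. The list mean ordered all 6 arrays as Reg3a did, from VDR-null replicate 1 at the top through VDR-null replicate 2, wild-type replicate 2, VDR-null replicate 3 and wild-type replicate 3 to wild-type replicate 1 at the bottom. Of 14 neutrophil genes only 3 were bright enough to be tested, Mmp9 (0.48 ± 0.22), Csf3r (0.074 ± 0.12) and Il1b (0.018 ± 0.19), with summed levels of 8.16 to 8.65 on VDR-null and of 7.79 to 8.29 on wild-type arrays. The granule proteins S100a8, at 3.14 to 3.36 on VDR-null and 3.31 to 3.41 on wild-type arrays, and Ngp, at 3.67 to 3.74 and 3.58 to 3.65, were dim. Whether these cells have a part in the Reg values was not tested.

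**Figure D5:**
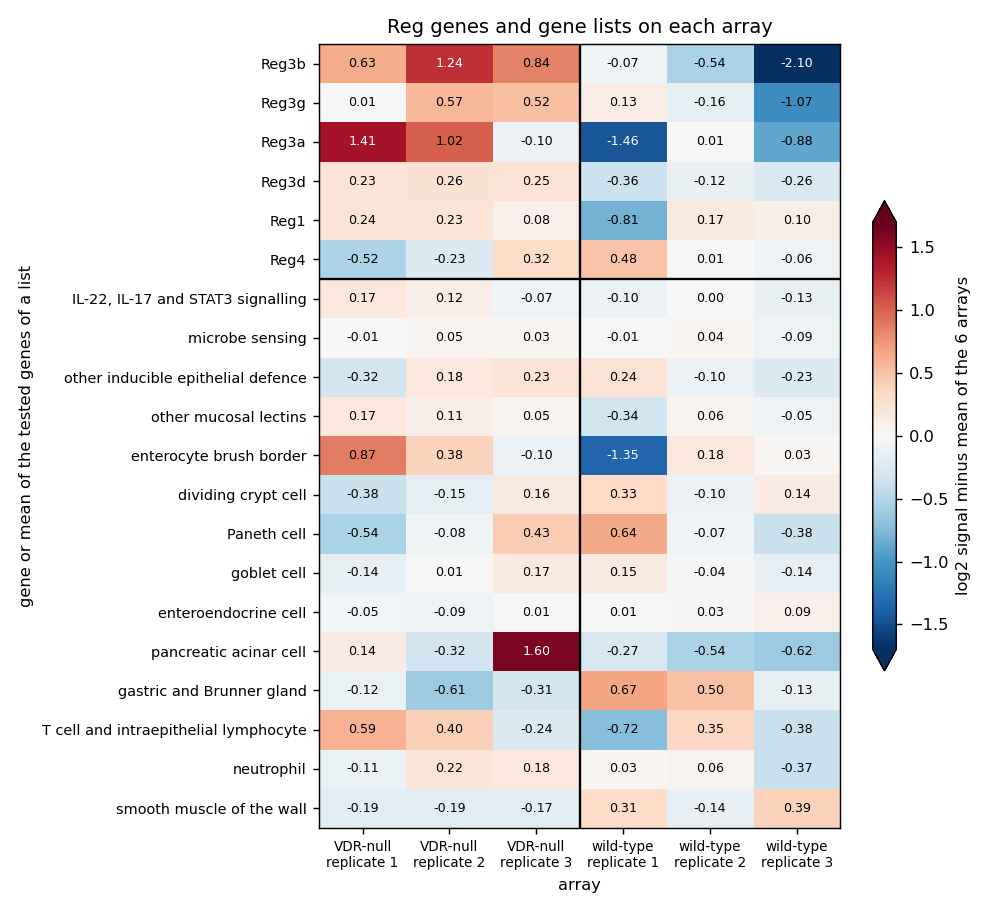
Log2 signal minus the mean of the 6 arrays for each Reg gene (upper 6 rows) and for the mean of the tested genes of 14 lists (lower rows), with VDR-null arrays on the left and wild-type arrays on the right. Wild-type replicate 1 is lowest in Reg3a, Reg1, brush border and T cell genes, and wild-type replicate 3 is lowest in Reg3b and Reg3g.

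Likeness to each tested member over the 6 arrays was measured by Pearson's r, leaving out predicted genes and receptors of smell. Closest to Reg3b were Tbcc (r = 0.99), Cfap126 (0.99) and Synj1 (0.99), and closest to Reg3g were Plekho2 (0.99), Slamf8 (0.98) and Commd6 (0.97). Tbcc read 6.87, 6.98 and 6.88 on VDR-null and 6.77, 6.71 and 6.36 on wild-type arrays. Closest to Reg3a were Cript, Dera and Syap1 (1.00 each), closest to Reg1 were Atp10b, Etv3 and Papss2 (0.99 each), and closest to Reg4 were Pom121 (1.00), Spc24 (0.99) and Snx24 (0.99). They were picked as the closest of 13174 genes over 6 arrays and are given without a test.

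Of the 4 named genes next to the chromosome 6 cluster, 1 was bright enough to be tested. Before Reg3b lie Ctnna2, at 4.14 to 4.29 on VDR-null and 4.15 to 4.24 on wild-type arrays, and Lrrtm1, at 4.27 to 4.46 and 4.70 to 4.93, both too dim to be tested. Beyond Reg3g lie Lrrtm4, dim at 4.07 to 4.35 on VDR-null and 4.08 to 4.33 on wild-type arrays, and Mrpl19, a mitochondrial ribosomal protein, which differed by -0.17 ± 0.16 (SE; limma adjusted p = 0.735). Around Reg4, the receptor Notch2 differed by -0.23 ± 0.13, the serine synthesis enzyme Phgdh by 0.082 ± 0.14 and Zfp697 by -0.039 ± 0.11, and Adam30 was dim.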

How the data were processed

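RNA from the duodenum of 3 VDR-null and 3 wild-type mice was labelled for Affymetrix Mouse Gene 2.0 ST arrays, per the labels. The authors deposited 1 log2 signal for each probe set and array. Per the submitters' processing notes these came from RMA in Expression Console, which corrects background, equalises array quantiles and summarises probes; its version was not in those notes, and the base of the logarithm was taken from RMA and from the range of values, 1.99 to 13.8. Of 41345 probe sets the platform annotation paired 23521 with 1 symbol, 1814 with several and 16010 with none, and only the first were named. Per gene the probe set with the highest mean was used.

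All 13174 genes above the filter entered a 2-group model in limma 3.58.1 (R 4.3.3), moderated by eBayes and without covariates; two-sided p-values were adjusted by Benjamini and Hochberg's method across all genes tested. SE is the moderated standard error. The procedure was checked on simulated data with independent noise for each gene, where it recovered 88% of 2-fold changes. These arrays vary together over many genes, so that share is not a measure of power here. The small number of arrays and their uneven spread limit precision: the median SD within a genotype was 0.15, and limma's array weights ran from 0.377 to 4.03. p-values set each difference against the spread between these mice, as moderated over all tested genes.

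The members and the gene lists were chosen with earlier results of these arrays known. Named genes were the members, Reg2, Vdr, 3 genes per list with the widest difference and 2 brightest per marker list, 2 neighbours on each side and 3 genes most like each member. Single genes named besides these (Il22, Il17ra, Il17rc, Stat3, Myd88, Ctrc, Spink1, S100a8 and Ngp) were added after their values were seen. Itln1 and Zg16 stand in both the lectin list and a cell type list. Upstream windows were aligned with Biopython 1.88 (match 2, mismatch -1, gap opening -5, extension -0.5).

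Replicate numbers come from the sample titles, and the main fit does not treat them as pairs of mice. Deviations of same-numbered arrays correlated at -0.62, 0.19 and -0.26 over genes, and those of differently numbered arrays at -0.60 to 0.68. With 1 component holding 62.2% of the variance, these values cannot settle whether mice were paired. Alternatives covered the filter, normalization, prior, array weights, replicate block, each array left out, probe set choice and 2 covariates.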

Additional observations from a re-analysis of the deposited data

How the results depend on the processing

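None of the 19 alternatives put a member or any other gene past the limma threshold, so 0 calls stood throughout. The number of genes at an unadjusted p under 0.05 moved from the 689 of the main setting to between 284 (without wild-type replicate 1) and 2718 (array weights), with 1569 without VDR-null replicate 3. The differences of Reg3b (1.20 to 2.51), Reg3a (0.83 to 2.27) and Reg3g (0.38 to 1.17) stayed above 0 in all 19. That of the dim Reg3d (0.43 to 0.56) did too, near the floor of the array. The family was chosen on these differences and every alternative reuses these arrays, so a kept sign is not independent support. Array weights gave 2.51 for Reg3b and 1.17 for Reg3g, and the lowest limma adjusted p of all these fits for them and for Reg3a, 0.191. The heaviest weight, 4.03, fell on VDR-null replicate 2, the highest array in Reg3b and Reg3g. The next, 2.03, fell on wild-type replicate 3, the lowest array in both, so this fit leans on the arrays farthest apart in these genes. Reg1 was higher in 18 of 19 and came to -0.035 with the brush border covariate. Reg4 was lower in 17 of 19, and came to 0.068 without both arrays numbered 1 and to 0.070 with the brush border covariate. Without both arrays numbered 1 the difference was 2.35 for Reg3b, 1.16 for Reg3g and 0.89 for Reg3a, and with the pancreatic covariate it was 2.27 for Reg3a and -0.66 for Reg4. The cause of the shifts with arrays left out or a covariate added was not tested. With each array left out in turn, Reg1 ran from 0.052 to 0.54 and Reg4 from -0.52 to -0.10. The replicate block left every difference as it was (Reg3b 1.80, limma adjusted p = 0.831) and changed no call. Reg3a was left without a test under the stricter filter, since wild-type replicate 1 lies below the median of all values.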
